A study of Mus musculus with 19 samples.

Results

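CXCR5hi PD-1hi cells that were negative for a BCL6 reporter were compared with CXCR5lo PD-1lo cells, and the members were the 7 arrays whose titles name these sorts, 4 YFP-negative and 3 CXCR5lo PD-1lo, of 19 arrays in all. The YFP-negative arrays, titled CXCR5hi PD-1hi YFP-BCL6- cells, were from day 10 (replicates 1 and 4) and day 7 (replicates 2 and 3) after immunization. All 3 CXCR5lo PD-1lo arrays were from day 7. Both sorts came from draining lymph nodes of C57BL/6J mice that received OT-II Bcl6yfp/+ T cells and a subcutaneous injection of NP-OVA in CFA. OT-II cells carry a transgenic receptor for an ovalbumin peptide, and both sorts carried the reporter allele. Ages were not given, and the labels do not say whether an array stands for 1 animal or for pooled animals. The p-values here therefore cover the variation among the 19 arrays alone, part of which may be technical. Other groups are used below only to place levels. They are 4 arrays of YFP-positive CXCR5hi PD-1hi cells, 3 from day 7 and 1 from day 10, and 2 arrays of naive CD4+ splenocytes of mice that were not immunized. The test drew the spread of each gene from all 19 arrays. These include CXCR5hi PD-1hi arrays titled Bcl6yfp/+ (day 7) and Bcl6+/+ (days 7 and 10), whose levels are not described. Values are GCRMA log2 levels, on which about 2 is the floor of the scale, and each gene is read from 1 probe set.

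Follicular helper T (Tfh) cells enter B cell follicles through the chemokine receptor CXCR5 and help B cells with interleukin-21, interleukin-4 and CD40 ligand. The transcriptional repressor BCL6 directs this fate, and BLIMP-1 (gene Prdm1) opposes it. Activated CD4+ T cells that stay outside the follicle can instead become effector cells under T-bet (gene Tbx21), with receptors for inflamed tissue and, in some settings, a cytotoxic granule programme.

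In all, 648 of 9930 genes (6.53%) passed an adjusted p of 0.05 in limma between YFP-negative and CXCR5lo PD-1lo cells. Of them 311 (3.13%) were higher and 337 (3.39%) lower in YFP-negative cells. Counts of called genes in the lists below are to be read beside these shares. Without YFP-negative replicate 1, which carries transcripts of other cell types described further on, 534 passed (5.38%), 244 higher (2.46%) and 290 lower (2.92%). The calls shared by both fits numbered 496, and 0 of these changed direction. With the replicate number as a block 748 passed (7.53%), on the day 7 arrays alone 344 (3.46%), and in pairs 2 and 3 alone with the pair as a block 1779 (17.9%). When the spread came from the 2 sorts alone 552 passed, of which 476 were among the 648. With the array normalization set as a block 3026 passed, 1481 higher and 1545 lower. These sets are not in the labels. They were inferred by grouping arrays whose sorted values differed on average by less than log2 0.06. The 7 sets so formed were as little as 0.067 apart. On the arrays of the 2 sorts and of YFP-positive cells these sets match the replicate numbers. Both blocks thus join the same arrays there and differ only in how arrays of other groups are placed. All 648 genes that passed with all arrays had the same direction within both pair 2 and pair 3. This was nearly fixed by the selection, since these pairs are among the arrays tested. In 635 of the 648 the arrays of the 2 sorts did not overlap. Over all genes, the arrays of the 2 sorts did not overlap in 743 genes that were higher (7.48%) and 1109 that were lower (11.2%). A gene is called below where it passed this test, and a difference is the log2 mean of YFP-negative cells minus that of CXCR5lo PD-1lo cells. The median difference over all genes was -0.09, and -0.13 without replicate 1.

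The genes of the sort follow the labels. Cxcr5 was at 13.72, 13.74, 13.66 and 13.70 on the 4 YFP-negative arrays, against 10.89, 9.91 and 9.45 on the CXCR5lo PD-1lo arrays. The groups did not overlap, and the log2 difference was 3.62 (SE 0.28, adjusted p = 1.91e-07), within pairs 2 and 3 of the same replicate number 3.83 and 4.21. Naive cells had Cxcr5 at the floor, 2.26 and 2.39, so the CXCR5lo PD-1lo cells lay between both. Pdcd1, which encodes the inhibitory receptor PD-1, was 14.21 to 14.58 in YFP-negative cells and 10.60 to 11.99 in CXCR5lo PD-1lo cells. These 2 differences check the sort and are no finding. Of the CD4+ T cell identity genes 9 of 12 were measured, Cd4 and Cd3e among them, and all 9 were at log2 8 or more on all 7 arrays with 0 called.

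Among the soluble products of helper cells Il4 and Sostdc1 had the largest differences. Il4, the cytokine that drives class switching to IgG1 and IgE, was at 13.11, 12.88, 12.74 and 12.96 in YFP-negative cells, against 4.23, 4.34 and 3.51 in CXCR5lo PD-1lo cells. It was low on every array of the second group, and the log2 difference was 8.90 (SE 0.53, adjusted p = 6.63e-09; 8.83 without replicate 1; 8.54 and 9.23 within pairs 2 and 3). Sostdc1, a secreted BMP and Wnt antagonist, was at 13.23, 11.30, 11.84 and 13.20 in YFP-negative cells, against 3.74, 3.04 and 3.02 in CXCR5lo PD-1lo cells. Il21, the cytokine that sustains germinal centre B cells, was at 13.13, 13.70, 12.95 and 13.21 in YFP-negative cells and at 10.85, 9.35 and 8.28 in CXCR5lo PD-1lo cells. So Il21 was expressed well above the floor in both sorts and differed by 3.76 (SE 0.45, adjusted p = 3.56e-05), while Il4 and Sostdc1 were at log2 4.34 or less in the second. Of the 9 Tfh secreted proteins and ligands tested, 5 rose and 0 fell, both with and without replicate 1, with a median difference of 2.28. The other risers were the matrix glycoprotein Tnc (7.60) and the CD30 ligand Tnfsf8 (2.28). A second Tnc probe set differed by 0.87 and did not pass (adjusted p = 0.318). Cd40lg, which encodes CD40 ligand, had a difference of 1.07 (SE 0.52, adjusted p = 0.329, and 0.015 in pairs 2 and 3).

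**Figure D1:**
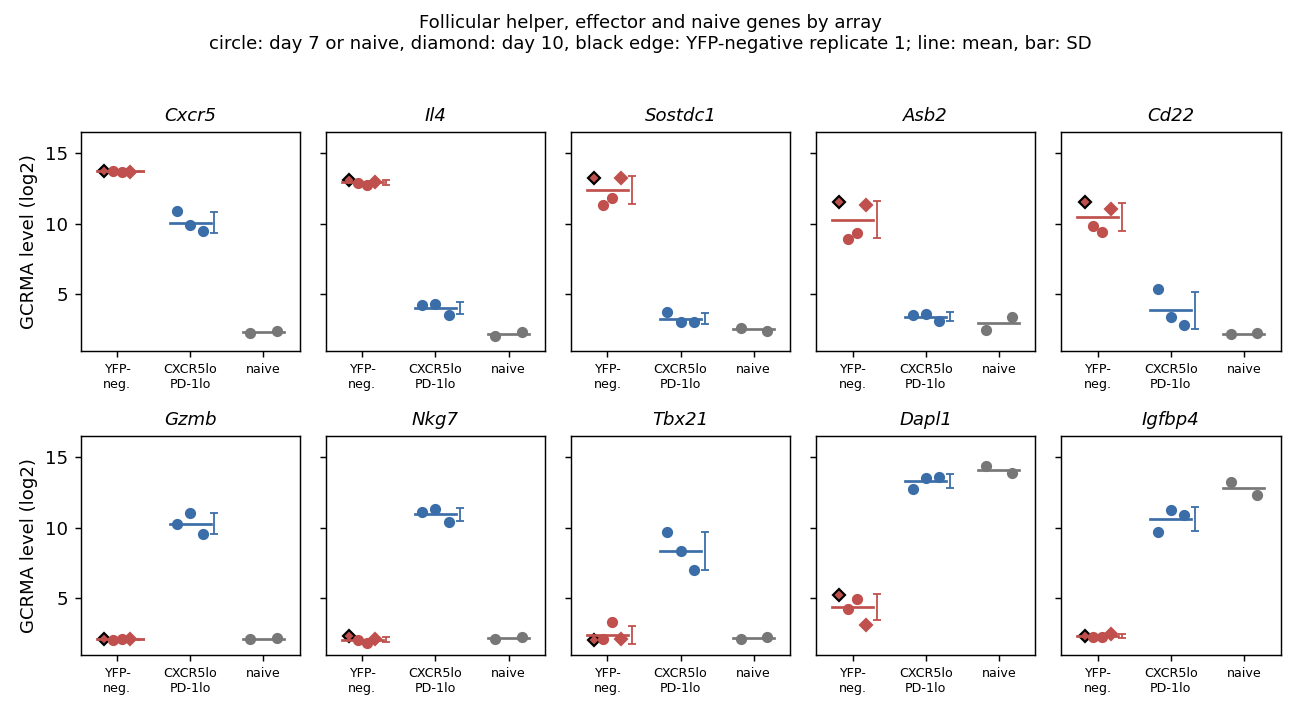
GCRMA log2 level (vertical axis) of 10 genes on each YFP-negative array (left, n = 4), CXCR5lo PD-1lo array (middle, n = 3) and naive array (right, n = 2), with means and SD bars. Gzmb, Nkg7 and Tbx21 lie near 2 on the YFP-negative and naive arrays, whereas Dapl1 and Igfbp4 are high on the CXCR5lo PD-1lo and naive arrays, and the 5 genes of the upper row are highest on the YFP-negative arrays.

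Among Tfh receptors and adaptors, 5 of 18 rose and 1 fell, with and without replicate 1. Asb2, the substrate receptor of an E3 ubiquitin ligase, was at 11.53, 8.94, 9.37 and 11.35 in YFP-negative cells, against 3.55, 3.62 and 3.07 in CXCR5lo PD-1lo cells. The groups were far apart, and the 2 day 10 arrays were the higher ones (difference 6.88, SE 0.74, adjusted p = 8.92e-06; 6.47 without replicate 1; 5.32 and 6.30 within pairs 2 and 3). Vdr, the vitamin D receptor, differed by 6.77 and Cd22, an inhibitory lectin best known from B cells, by 6.61. S1pr2, which confines cells to the germinal centre, differed by 2.46, and the ATP-gated channel P2rx7 by 1.33. P2rx7 was also high in the second sort, at 12.24 to 13.29. Selplg, the P-selectin ligand, fell by 1.29. Other receptors by which Tfh cells are often described did not pass. Icos was 14.17 to 14.40 in YFP-negative cells and 14.07 to 14.49 in CXCR5lo PD-1lo cells (adjusted p = 0.947), and Cd200, Btla and Slamf1 had differences of -0.07, 0.38 and 0.55 (adjusted p = 0.979, 0.452 and 0.42). In pairs 2 and 3 Slamf1 passed (adjusted p = 0.0124). The median difference of the list was 0.34.

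Of 16 Tfh transcription factors 6 rose and 2 fell, with 4 and 1 without replicate 1. Bcl6 was at 13.79, 14.00, 13.70 and 14.14 in YFP-negative cells and 13.02, 12.73 and 12.30 in CXCR5lo PD-1lo cells. It was thus high in both, also in the cells sorted as reporter-negative, and differed by 1.22 (SE 0.23, adjusted p = 0.00252). Cebpa, a factor best known from granulocyte differentiation, was at 12.98 to 13.44 in YFP-negative cells and at 9.31, 5.29 and 7.20 in CXCR5lo PD-1lo cells. The HMG-box factor Tox2 differed by 1.75, the OCT coactivator Pou2af1 by 1.31 and the AP-1 factor Batf by 0.98. Batf lost its call without replicate 1 (adjusted p = 0.0548). Bach2, a repressor of effector differentiation, fell by 2.77. Irf4 fell by 1.15 (adjusted p = 0.0345, but 0.0836 without replicate 1 and 0.0585 with the replicate number as a block). Lef1, which promotes the Tfh fate upstream of Bcl6, was at 12.95 to 13.68 in YFP-negative cells and 13.05 to 13.84 in CXCR5lo PD-1lo cells (adjusted p = 0.941). Maf had 0.60 on its chosen probe set and was not called. In a limma fit of all kept probe sets, others of Maf passed at 1.98 and 1.90 (adjusted p = 1.37e-05 and 0.00219). Those at 1.63 and 0.77 did not (0.123 and 0.634).

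**Figure D2:**
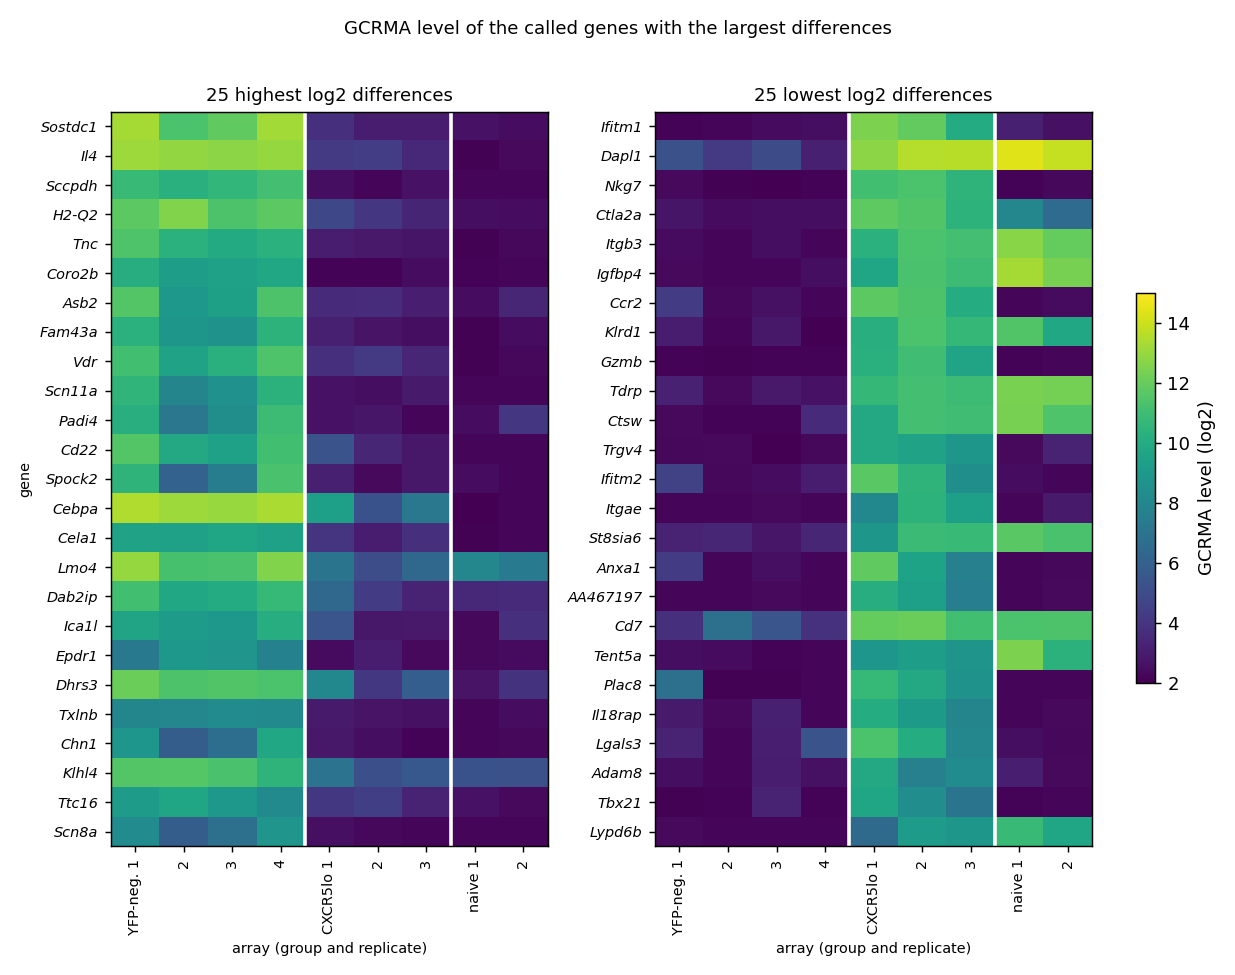
GCRMA log2 level (colour) of the 25 called genes with the highest and the 25 with the lowest differences whose arrays do not overlap, on the 4 YFP-negative, 3 CXCR5lo PD-1lo and 2 naive arrays from left to right. In the block of higher genes most levels on the CXCR5lo PD-1lo and naive arrays are near the floor, with Lmo4 (8.04 and 7.40) and Klhl4 (5.30 and 5.20) the highest on the naive arrays, and the block of lower genes holds genes that are bright on the naive arrays and genes that are dark there.

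Other genes with the largest rises had less familiar roles in T cells. Sccpdh was at 10.83, 10.27, 10.61 and 11.09 in YFP-negative cells, against 2.25 to 2.62 in CXCR5lo PD-1lo cells, a difference of 8.24. H2-Q2, a nonclassical MHC class I gene whose probes can be shared with related genes of the cluster, differed by 7.74, and the actin regulator Coro2b by 7.44. Fam43a differed by 6.77 and the voltage-gated sodium channel Scn11a by 6.65. Padi4, which converts arginine to citrulline in proteins, differed by 6.63, and the proteoglycan Spock2 by 6.05. The pancreatic-type protease gene Cela1 was even across the YFP-negative arrays, at 9.43 to 9.62, against 3.02 to 3.94 in CXCR5lo PD-1lo cells. The transcriptional cofactor Lmo4 differed by 5.84 and the Ras GTPase regulator Dab2ip by 5.78. All of these genes were also called without replicate 1, with differences of 5.50 to 8.20. Their levels on the 2 naive arrays were 2.06 to 4.05, except Lmo4 at 8.04 and 7.40.

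Some genes of cytotoxic cells were high in CXCR5lo PD-1lo cells and at the floor in YFP-negative cells, and gamma chain transcripts moved with them. Gzmb, the granule protease that triggers apoptosis of target cells, was at 2.13, 2.06, 2.11 and 2.12 in YFP-negative cells, against 10.26, 11.03 and 9.57 in CXCR5lo PD-1lo cells. Nkg7, a granule membrane protein, was at 2.32, 2.06, 1.82 and 2.11 in YFP-negative cells, against 11.09, 11.31 and 10.44 in CXCR5lo PD-1lo cells. Both genes were at the floor on every YFP-negative array, so that their differences of -8.18 and -8.87 (SE 0.24 and 0.20, adjusted p = 9.33e-13 and 3.81e-14) depend on where that floor lies. The SE and p-values pool the spread over all groups, also over those at the floor, and so overstate the precision. The SD of Gzmb was 0.03 in YFP-negative and 0.73 in CXCR5lo PD-1lo cells. In RNA of whole sorted samples, fewer cells of a type and less RNA per cell cannot be told apart. Of 20 Th1 cytokine and cytotoxic granule genes, 9 fell and 0 rose, and 8 fell without replicate 1. The median difference was -1.29. Ifng, the Th1 cytokine, was at 2.27 to 3.05 in YFP-negative cells and 6.15, 7.20 and 8.11 in CXCR5lo PD-1lo cells. The protease inhibitor genes Ctla2a and Ctla2b differed by -8.68 and -4.67, the cathepsin Ctsw by -8.12 and the granzyme Gzmc by -3.63. The chemokine Ccl5 differed by -5.56, and by -6.39 without replicate 1, on which it was at 5.41 against 2.06 to 2.13 on the other 3. Xcl1 was at most 4.37 on any of these arrays and lost its call without replicate 1 (adjusted p = 0.0542). The T cell receptor gamma chain segment Trgv4 was at 2.03 to 2.32 in YFP-negative cells and 9.86, 9.46 and 8.89 in CXCR5lo PD-1lo cells. Trgv1 was at 2.01 to 2.10 in YFP-negative cells and 4.03, 10.10 and 9.55 in CXCR5lo PD-1lo cells, so it was lowest on CXCR5lo PD-1lo replicate 1, as was Ccl5 (5.78, 10.14 and 9.55). What part gamma delta T cells have in these differences was not tested.

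The remaining 11 of the 20 genes did not pass. Gzma, a granzyme with a different cleavage preference, was at 14.16, 10.78, 10.31 and 13.43 in YFP-negative cells and at 12.48, 12.79 and 10.58 in CXCR5lo PD-1lo cells. It was highest on the 2 day 10 arrays, the groups overlapped, and the difference of 0.22 did not pass (SE 0.86, adjusted p = 0.98). Prf1, which encodes the pore-forming perforin, was at 9.99 to 10.96 in YFP-negative cells and 10.51 to 10.99 in CXCR5lo PD-1lo cells (adjusted p = 0.92).

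Killer cell lectin receptors, which NK cells and cytotoxic T cells carry, followed Gzmb. Of 7 such receptors tested 4 fell and 1 rose, with and without replicate 1. Klrd1, the CD94 chain that pairs with NKG2 chains, was at 3.04, 2.21, 2.86 and 2.03 in YFP-negative cells, against 10.16, 11.32 and 10.68 in CXCR5lo PD-1lo cells. Its partner Klrc1 differed by -4.71 and Klrk1, which encodes NKG2D, by -3.90. Klrg1 differed by -3.34 and rested on 2 arrays, since CXCR5lo PD-1lo replicate 1 was at 2.40 and replicates 2 and 3 at 7.18 and 7.24, an order also seen for Trgv1. The riser was Cd160, an inhibitory or activating immunoglobulin-family receptor that binds HVEM, at 11.59 to 11.87 in YFP-negative cells and 6.53 to 6.85 in CXCR5lo PD-1lo cells.

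Effector transcription factors fell in 6 of 19 and rose in 2, with 6 and 1 without replicate 1, and the median difference was -0.52. Tbx21 was at 2.07, 2.10, 3.31 and 2.13 in YFP-negative cells, against 9.72, 8.39 and 7.01 in CXCR5lo PD-1lo cells. Groups were well apart at a difference of -5.97 (SE 0.46, adjusted p = 1.6e-07; -6.28 and -3.71 within pairs 2 and 3). Prdm1 was at 2.16 to 2.75 in YFP-negative cells and at 8.12, 5.48 and 4.24 in CXCR5lo PD-1lo cells, a difference of -3.57 (SE 0.81, adjusted p = 0.0114). Its levels in naive cells, 7.75 and 4.32, lay within the range of CXCR5lo PD-1lo cells. Runx3, a cofactor of T-bet, was at 6.30, 9.56, 9.07 and 4.08 in YFP-negative cells and 11.73 to 12.24 in CXCR5lo PD-1lo cells. It differed by -4.73 (adjusted p = 0.0293, but 0.083 without replicate 1). The dioxin receptor Ahr differed by -2.18 (adjusted p = 0.0285, and 0.0913 without replicate 1) and the homeodomain-only protein Hopx by -1.46. Id2, an inhibitor of E proteins, had -1.21 and was called without replicate 1 (adjusted p = 0.0471) and with the replicate block (0.00917), but not with all arrays (0.0523). The Ikaros family members Ikzf3 and Ikzf2 rose by 1.65 and 0.97, and Ikzf2 lost its call without replicate 1 (adjusted p = 0.0862).

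Promoter windows from RefSeq (GRCm38.p6, 250 bases before to 50 after a start site) were available for 8147 of the 9930 tested genes and for 515 of the 648 called ones. The 4 windows below are printed because their genes have large differences and the windows hold a match to a motif given next. Windows of Ifitm1, Dapl1 and Ccr2 (differences of -9.15, -8.91 and -8.20) held 0 matches, and that of Tbx21 held 1 E-box match. These are not printed. Capitals mark matches, on either strand, to the T-box motif GGTGTGA, to TTCNNNGAA, the spacing of STAT and BCL6 sites, and to the E-box CAGCTG. Nkg7 (chr7:43436888-43437187, plus strand) holds 1 T-box and 1 TTCNNNGAA match, and Gzmb (chr14:56262285-56262584, minus strand) 1 TTCNNNGAA match. Of the 2 windows each of Il4 and Asb2, 1 holds a match and is shown (chr11:53617289-53617588 and chr12:103338341-103338640, both minus strand).
Nkg7: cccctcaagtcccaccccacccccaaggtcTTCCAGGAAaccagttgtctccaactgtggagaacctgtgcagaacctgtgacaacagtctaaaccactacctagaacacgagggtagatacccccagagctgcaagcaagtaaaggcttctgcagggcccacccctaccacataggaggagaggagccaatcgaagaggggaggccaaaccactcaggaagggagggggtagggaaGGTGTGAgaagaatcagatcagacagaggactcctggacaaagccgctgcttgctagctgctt
Gzmb: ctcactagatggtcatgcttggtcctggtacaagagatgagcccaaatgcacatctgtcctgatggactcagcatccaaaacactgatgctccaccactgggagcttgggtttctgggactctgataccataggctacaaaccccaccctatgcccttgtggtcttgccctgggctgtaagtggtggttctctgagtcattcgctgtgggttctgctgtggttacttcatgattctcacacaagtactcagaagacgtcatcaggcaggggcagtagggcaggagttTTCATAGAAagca
Il4: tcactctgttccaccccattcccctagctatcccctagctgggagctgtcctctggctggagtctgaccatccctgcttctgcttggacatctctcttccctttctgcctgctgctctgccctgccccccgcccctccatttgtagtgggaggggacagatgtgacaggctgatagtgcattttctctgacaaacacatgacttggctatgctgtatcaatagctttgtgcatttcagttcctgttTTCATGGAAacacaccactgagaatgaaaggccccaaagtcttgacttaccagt
Asb2: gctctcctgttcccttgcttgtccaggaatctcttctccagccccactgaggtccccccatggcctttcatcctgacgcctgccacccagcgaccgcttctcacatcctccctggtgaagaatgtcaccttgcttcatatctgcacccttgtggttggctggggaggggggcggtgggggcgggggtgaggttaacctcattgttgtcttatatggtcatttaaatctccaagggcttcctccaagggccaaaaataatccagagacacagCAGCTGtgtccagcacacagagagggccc
Of genes with a window, 11.7% of the called lower genes held TTCNNNGAA, against 6.95% of the called higher genes and 8.16% of all tested genes. The T-box motif was in 5.08% of lower, 5.79% of higher and 3.99% of all genes, and the E-box in 21.9%, 23.2% and 16.8%. These shares describe letters in 1 short window and were not tested.

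Of 17 chemokine and positioning receptors 10 fell and 2 rose, with 9 and 2 without replicate 1, at a median difference of -2.14 (-1.87 without it). On the day 7 arrays alone 3 fell and 2 rose, and within pairs 2 and 3 the list medians were -0.955 and -1.02. The calls of Ccr7, Ccr8, Gpr18, S1pr1 and S1pr4 described below were lost on day 7 arrays (adjusted p = 0.262, 0.0669, 0.149, 0.277 and 0.0782), as were those of Ccr9 and Selplg (0.17 and 0.101). Ccr2, which guides cells to inflamed tissue, was at 4.27, 2.29, 2.58 and 2.23 in YFP-negative cells, against 11.70, 11.36 and 10.06 in CXCR5lo PD-1lo cells. The difference was -8.20, and -8.68 without replicate 1. Cxcr6 was at 7.82 to 9.65 in YFP-negative cells and 9.77 to 12.03 in CXCR5lo PD-1lo cells (-2.18). Ccr7, the receptor for the T cell zone, was at 9.74, 10.00, 9.85 and 7.06 in YFP-negative cells, against 13.42, 13.02 and 12.88 in CXCR5lo PD-1lo cells. It fell by 3.94 (SE 1.04, adjusted p = 0.0293). S1pr1, which guides exit from lymph nodes, fell by 2.22, and S1pr4 by 1.26. The mucosal homing receptor Gpr15 fell by 4.44, Ccr8 by 2.32 and Gpr18 by 2.22. Ccr9 fell by 1.83 and lost its call without replicate 1 (adjusted p = 0.0578). Cxcr3, a target of T-bet, had -2.27 (SE 1.13, adjusted p = 0.348), and Ccr6 -2.14 (adjusted p = 0.184). Gpr183, which moves cells to the edge of the follicle, had 0.53 and passed with the replicate block and in pairs 2 and 3 (adjusted p = 0.0313 and 0.0166) but not otherwise among these fits (0.217 without a block).

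Integrins and adhesion molecules showed the same direction in 8 of 21, and 1 rose, with 7 and 0 without replicate 1. Itgb3, the beta-3 integrin chain, was at 2.40, 2.15, 2.47 and 2.23 in YFP-negative cells, against 10.30, 11.31 and 11.11 in CXCR5lo PD-1lo cells. Itgae, the CD103 chain that binds E-cadherin, was at 2.18 to 2.34 in YFP-negative cells and 8.06, 10.42 and 9.36 in CXCR5lo PD-1lo cells. L1cam fell by 5.68, the alpha-4 chain Itga4 by 3.27, and the chains Itga6, Itgb1 and Itgb7 by 1.57, 1.17 and 1.07. Further Itgb1 probe sets had -0.76, -0.71 and -0.90 and did not pass (adjusted p = 0.626, 0.691 and 0.765), while 1 at -1.40 did (0.0378). The activating receptor Cd226 fell by 1.52 and lost its call without replicate 1 (adjusted p = 0.0779). Itgal, a chain of LFA-1, had 0.50 (adjusted p = 0.28, and 0.0278 in pairs 2 and 3). Itgb8, which activates latent TGF-beta, was at 7.74, 4.64, 4.61 and 9.83 in YFP-negative cells and 2.33 to 2.60 in CXCR5lo PD-1lo cells; its call was lost without replicate 1 (adjusted p = 0.0444 and then 0.117).

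Cytokine receptors differed in 6 of 24 genes, 5 lower and 1 higher. Il7r, which takes up the survival cytokine interleukin-7, was at 11.19, 9.78, 8.55 and 10.64 in YFP-negative cells, against 13.98, 14.29 and 13.63 in CXCR5lo PD-1lo cells, a difference of -3.93 (SE 0.72, adjusted p = 0.00215). Both chains of the interleukin-18 receptor fell, with differences of -6.37 for Il18rap and -4.29 for Il18r1. Il2ra, the high-affinity chain for interleukin-2, was at 2.12 to 2.95 in YFP-negative cells and 9.95, 6.97 and 6.24 in CXCR5lo PD-1lo cells. Il4ra fell by 2.10. The receptor chain Il2rb was at 12.05 to 12.53 in YFP-negative cells and 12.17 to 12.99 in CXCR5lo PD-1lo cells (adjusted p = 0.936). The riser was Il1r1 (1.65, adjusted p = 0.025, but 0.0729 without replicate 1). Of 13 regulatory T cell genes 4 fell and 1 rose, with 5 and 0 without replicate 1. The suppressor Socs2 fell by 5.61 and the actin-capping Capg by 2.79, beside Il2ra and Itgae above. Foxp3, the defining factor of that lineage, was 2.46 to 3.91 in YFP-negative cells and 3.38 to 5.14 in CXCR5lo PD-1lo cells (adjusted p = 0.763, but 0.00573 in pairs 2 and 3, with differences of -1.25 and -1.46).

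Costimulatory and inhibitory receptors rose in 7 of 24 and fell in 2, with 6 and 2 without replicate 1. The inhibitory receptor Lag3 was at 11.25 to 11.42 in YFP-negative cells and 9.62 to 10.57 in CXCR5lo PD-1lo cells, a difference of 1.16. The HVEM ligand Tnfsf14 rose by 1.83 and the PD-1 ligand Pdcd1lg2 by 1.73, in addition to Pdcd1, Cd160 and Tnfsf8. Vsir rose by 0.83 and lost its call without replicate 1 (adjusted p = 0.0605). Havcr2, which encodes the inhibitory receptor TIM-3 of Th1 cells, was at 2.12 to 2.15 in YFP-negative cells and 8.20, 6.80 and 4.18 in CXCR5lo PD-1lo cells. Cd6 fell by 0.95. Ctla4 and Cd28 did not pass (adjusted p = 0.409 and 0.866), and in pairs 2 and 3 Ctla4 did (0.0466, differences of -0.84 and -0.96).

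**Figure D3:**
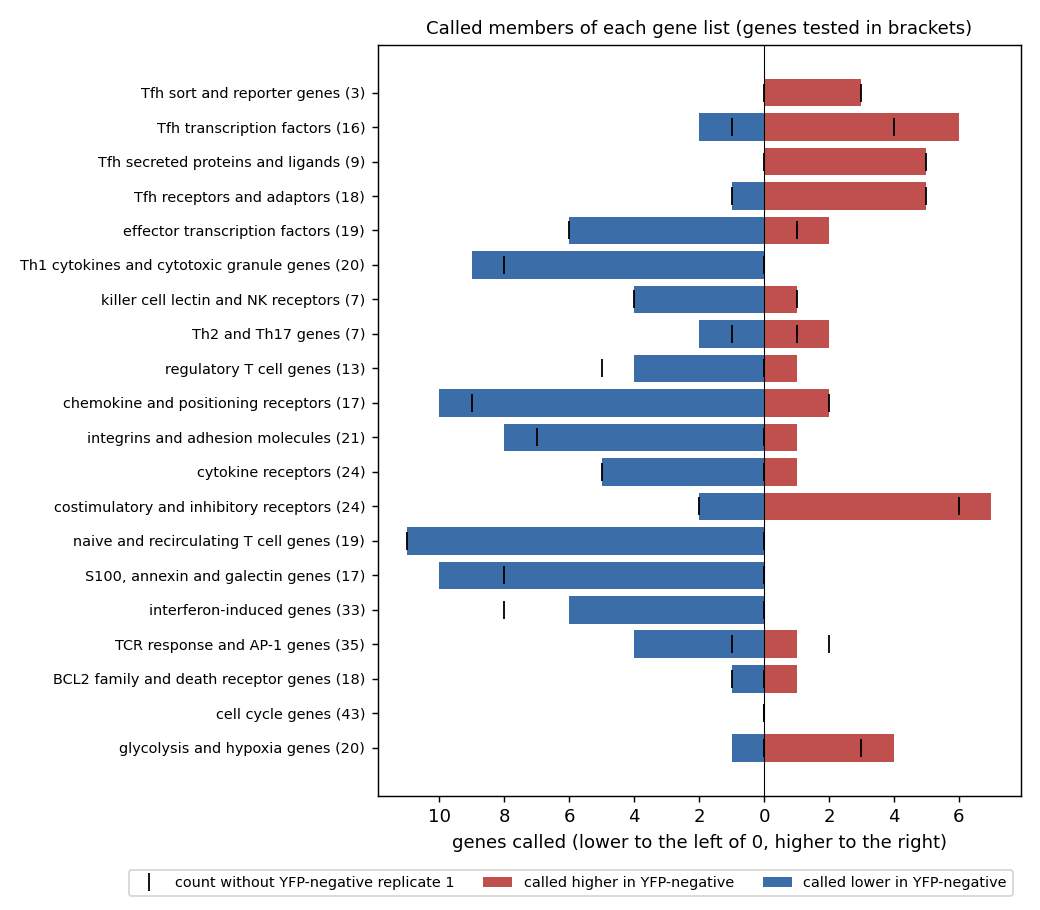
Number of called genes (horizontal axis) in each of 20 gene lists, higher in YFP-negative cells to the right of 0 and lower to the left, with the number of genes tested in brackets and black ticks at the counts without YFP-negative replicate 1. The bars of naive and recirculating genes, chemokine receptors, S100 and annexin genes and Th1 genes reach furthest to the left, at 11, 10, 10 and 9 genes.

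Genes of naive and recirculating T cells were lower in YFP-negative cells in 11 of 19 and higher in 0, both with and without replicate 1, with a median difference of -1.07. Dapl1 was at 5.24, 4.22, 4.96 and 3.13 in YFP-negative cells, against 12.73, 13.56 and 13.60 in CXCR5lo PD-1lo cells. Its level in naive cells, 14.37 and 13.88, exceeded both (difference -8.91, SE 0.67, adjusted p = 1.14e-07; -9.20 without replicate 1; -9.34 and -8.65 within pairs 2 and 3). Igfbp4, a binding protein for insulin-like growth factors, was at 2.24 to 2.48 in YFP-negative cells, 9.69, 11.27 and 10.93 in CXCR5lo PD-1lo cells and 13.26 and 12.33 in naive cells. Klf2, which keeps T cells quiescent and recirculating, was at 8.68, 9.23, 9.03 and 7.31 in YFP-negative cells, against 11.68, 11.49 and 11.47 in CXCR5lo PD-1lo cells. Treml2 fell by 4.32 and the ETS factor Ets2 fell too (adjusted p = 0.0162), beside Il7r, Ccr7, S1pr1, Bach2, Itgb7 and Itga6 above.

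The naive arrays divided the genes that separate the sorts. Of the 337 called lower genes, 225 (66.8%) had a naive mean nearer to CXCR5lo PD-1lo cells and 112 (33.2%) nearer to YFP-negative cells. Over all genes the naive mean was nearer to CXCR5lo PD-1lo cells in 49.4%. Among the 25 lowest genes the split was 11 and 14. Dapl1, Itgb3, Igfbp4, Klrd1, Ctsw, Tdrp, St8sia6, Tent5a and Cd7 belong to the first kind, in which naive and CXCR5lo PD-1lo cells were both high. Gzmb, Nkg7, Ifitm1, Ccr2, Itgae, Anxa1, Il18rap, Plac8 and Tbx21 belong to the second, at 3.15 or less in naive cells. Ctsw and Klrd1, which are counted among cytotoxic genes, were thus already high in naive cells, at 12.35 and 11.43 and at 11.45 and 9.81. Of the 311 called higher genes, 288 (92.6%) had a naive mean nearer to CXCR5lo PD-1lo cells. The naive arrays come from another organ. Naive replicate 1 shares its inferred normalization set with YFP-negative replicate 4 and with no CXCR5lo PD-1lo array. Naive replicate 2 shares its set with no array of the 2 sorts. This description has no test.

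Of 17 S100, annexin, galectin and related genes 10 fell and 0 rose, with 8 lower without replicate 1. The median difference was -2.28, and within pairs 2 and 3 it was -1.69 and -1.13. Anxa1, an annexin that dampens inflammation, was at 4.33, 2.15, 2.51 and 2.16 in YFP-negative cells, against 11.85, 9.53 and 7.67 in CXCR5lo PD-1lo cells. The galectin Lgals3 was at 3.23, 2.21, 3.11 and 5.30 in YFP-negative cells and 11.31, 10.03 and 8.01 in CXCR5lo PD-1lo cells. Emp1 fell by 4.89, Emp3 by 3.69, Tagln2 by 3.12, S100a4 by 2.51 and Crip1 by 2.44. The scaffold Ahnak was at 8.99 to 11.03 in YFP-negative cells and 13.42 to 14.46 in CXCR5lo PD-1lo cells. Vim and Anxa6 fell by 2.28 and 1.88 and lost their calls without replicate 1 (adjusted p = 0.0746 and 0.0956). S100a6 had -1.10 (adjusted p = 0.223). The naive means of Emp3, Crip1, Tagln2, Vim and Anxa6, at 13.9, 13.4, 10.3, 14.2 and 12.8, lay nearer to CXCR5lo PD-1lo than to YFP-negative cells.

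Interferon-induced genes fell in 6 of 33, and 8 without replicate 1, and rose in 0. The 3 neighbouring Ifitm genes, which restrict virus entry, led the list. Ifitm1 was at 2.14, 2.16, 2.37 and 2.49 in YFP-negative cells, against 12.42, 11.89 and 10.02 in CXCR5lo PD-1lo cells. Ifitm2 and Ifitm3 differed by -7.13 and -5.70, and by -7.62 and -6.56 without replicate 1. The classical interferon targets Ifit1, Ifit2 and Ifit3 had -0.20, -0.72 and -0.42 (adjusted p = 0.922, 0.13 and 0.838). In pairs 2 and 3 these 3 genes did pass (adjusted p = 0.0269, 0.0155 and 0.00749), with differences of -0.65 and -0.74, -0.91 and -0.71, and -0.97 and -1.01. Oas2 fell by 4.01, Bst2 by 1.48 and Gbp2 by 1.01, and Gbp2 lost its call with the replicate block (adjusted p = 0.0668). Mx1 and Usp18 passed without replicate 1 (adjusted p = 0.0494 each) and in pairs 2 and 3 (0.0178 and 0.0115), but not with all arrays.

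Of 35 T cell receptor response and AP-1 genes 5 differed, 1 higher and 4 lower, and 2 higher and 1 lower without replicate 1. The 1 higher gene is near the share over all genes, 3.13%. Egr1 was at 13.86 to 14.26 in YFP-negative cells and 14.13 to 14.27 in CXCR5lo PD-1lo cells (adjusted p = 0.911), and Egr2 and Egr3 did not pass either (0.617 and 0.92). Rgs16, which shortens chemokine receptor signals, rose by 3.88. Dusp2, a nuclear MAP kinase phosphatase, fell by 1.92, while Dusp5 and Myc fell by 1.27 and 1.84 and lost their calls without replicate 1 (adjusted p = 0.0713 and 0.0758). Of 20 glycolysis and hypoxia genes 4 rose and 1 fell, with 3 and 0 without replicate 1. Egln3, an oxygen-sensing hydroxylase, was at 12.20 to 12.50 in YFP-negative cells and 9.54 to 10.23 in CXCR5lo PD-1lo cells. The aldolase Aldoc rose by 4.24 and Bnip3 by 2.07, and Pfkp rose by 0.60 only with replicate 1 included (adjusted p = 0.0359 and 0.0845). Hk2 fell by 2.32 and lost its call without replicate 1 (adjusted p = 0.123) and with the replicate block (0.0991). Of 18 BCL2 family and death receptor genes 1 rose and 1 fell. These counts are too small to set apart from the shares over all genes, 3.13% higher and 3.39% lower. The death receptor Fas rose by 0.91 (adjusted p = 0.0283, but 0.0862 without replicate 1) and the pro-death gene Bcl2l11 fell by 1.85. Of 7 Th2 and Th17 genes 2 rose and 2 fell, with 1 and 1 without replicate 1, and Gata3, the Th2 factor, had -0.39 (adjusted p = 0.739) although Il4 was high.

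Cell cycle genes were called in 0 of 43, with 0 also without replicate 1 and in the day 7 arrays alone. Their mean level was 8.09, 9.82, 10.2 and 7.04 on the YFP-negative arrays, against 10.9, 8.48 and 7.63 on the CXCR5lo PD-1lo arrays, so that arrays of 1 group differed as much as the groups. The YFP-negative arrays with the 2 lower means were those of day 10. Within pairs 2 and 3 the list medians were 1.17 and 2.63.

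The day of the sort was uneven between the groups, since CXCR5lo PD-1lo cells were sorted on day 7 only. Both day 10 YFP-negative arrays were also the ones with Y-linked transcripts. Eif2s3y, a Y-linked gene, was at 13.28 and 13.21 on replicates 1 and 4 and at 2.22 to 2.35 on the other 5 arrays. Xist was at 1.97 and 2.08 on these 2 and at 13.01 to 14.00 on the others. Day and sex-linked transcripts therefore cannot be told apart in YFP-negative cells. In 138 of the 311 called higher genes (44.4%) both day 10 arrays lay above both day 7 arrays, and in 114 of the 337 called lower genes (33.8%) both lay below. Over all genes the shares were 9.20% above and 21.5% below. The calls rest on means that include the day 10 arrays, which favours such genes. The shares among called genes therefore cannot be set against those over all genes. Ascl2, a basic helix-loop-helix factor that induces Cxcr5, was at 9.99, 3.64, 4.90 and 10.77 in YFP-negative cells, against 2.31 to 2.35 in CXCR5lo PD-1lo cells. The 2 day 10 arrays stood well above the 2 of day 7, and its call (adjusted p = 0.0366) was lost without replicate 1 (0.114) and in the day 7 arrays alone (0.497). Cxxc5, at 11.46, 6.01, 6.82 and 12.13 in YFP-negative cells and 2.41, 4.45 and 5.33 in CXCR5lo PD-1lo cells, went the same way (adjusted p = 0.0262, 0.0865 without replicate 1 and 0.424 on day 7). With day 7 arrays alone, 2 YFP-negative against 3 CXCR5lo PD-1lo, 344 genes passed, of which 331 were also called with all arrays. On these arrays the counts were 3 higher and 1 lower for Tfh transcription factors, 0 and 3 for effector transcription factors, 0 and 5 for integrins and 0 and 6 for naive and recirculating genes. All 5 of Cxcr5, Il4, Asb2, Dapl1 and Gzmb were among them, at adjusted p-values of 1.92e-05, 1.24e-06, 0.000312, 4.65e-06 and 5.78e-10.

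**Figure D4:**
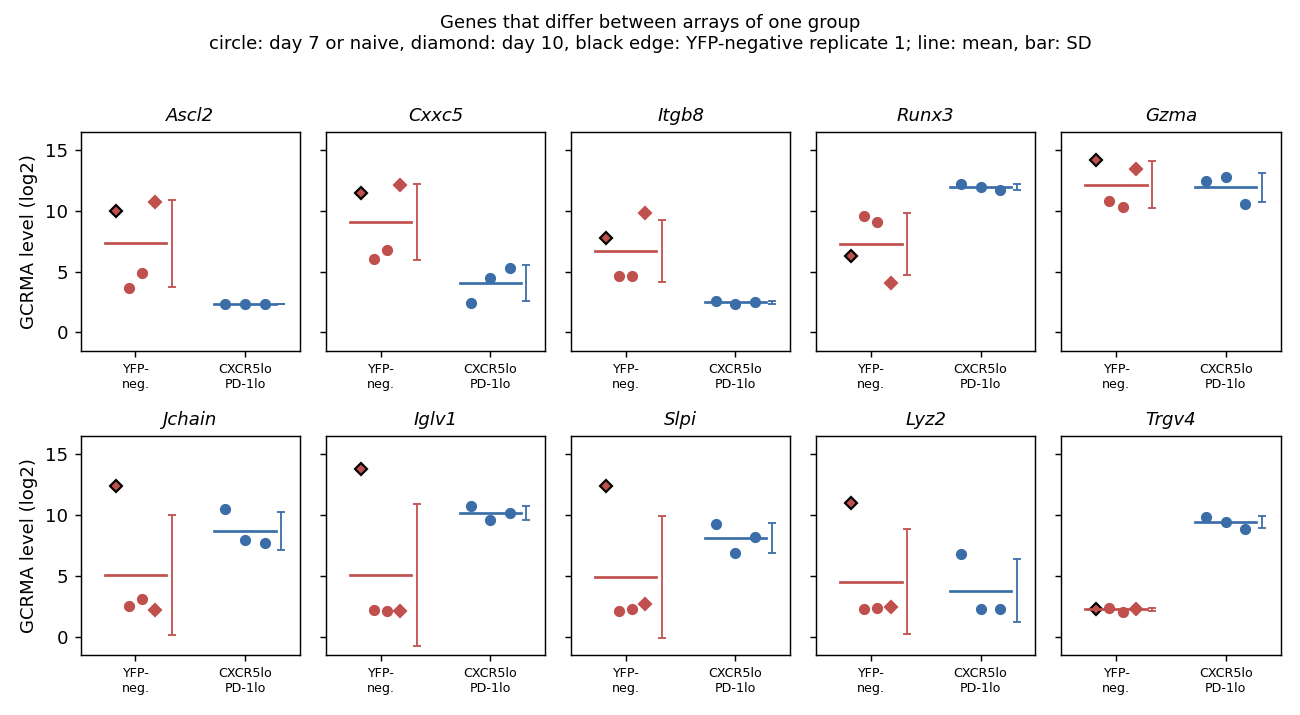
GCRMA log2 level (vertical axis) of 10 genes on each YFP-negative array (left, n = 4; diamonds day 10, circles day 7, black edge replicate 1) and CXCR5lo PD-1lo array (right, n = 3, day 7), with means and SD bars. In the upper row the day 10 diamonds stand apart from the circles. In the lower row replicate 1 is the only YFP-negative array that is high for Jchain, Iglv1, Slpi and Lyz2. The CXCR5lo PD-1lo arrays are also above the floor for Jchain, Iglv1 and Slpi, and their replicate 1 is so for Lyz2. Trgv4 is at 2.03 to 2.32 on all YFP-negative arrays.

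YFP-negative replicate 1 carried transcripts of plasma, myeloid and antigen-presenting cells at higher levels than the other 3 YFP-negative arrays. Jchain, the joining chain of secreted antibodies, was at 12.42, 2.51, 3.06 and 2.20 in YFP-negative cells, against 10.53, 7.91 and 7.72 in CXCR5lo PD-1lo cells. The light chain gene Iglv1 was at 13.81, 2.20, 2.11 and 2.13 in YFP-negative cells, against 10.75, 9.60 and 10.14 in CXCR5lo PD-1lo cells. So the 3 CXCR5lo PD-1lo arrays carried antibody transcripts too, and both genes passed without replicate 1 (adjusted p = 0.031 and 0.0161) and not with it (0.48 and 0.357). Slpi was at 12.39, 2.14, 2.27 and 2.71 in YFP-negative cells and 9.30, 6.84 and 8.18 in CXCR5lo PD-1lo cells, and likewise passed without replicate 1 (adjusted p = 0.00104) and not with it (0.458). The granulocyte genes S100a8 and S100a9 were at 10.3 and 12.1 on replicate 1 and at most 2.72 on the other 6 arrays. Lyz2, a macrophage lysozyme, was at 10.98 on replicate 1, at 6.76 on CXCR5lo PD-1lo replicate 1 and at most 2.44 elsewhere. Cd74, the invariant chain, was at 10.32, 7.05, 7.17 and 7.26 in YFP-negative cells and 10.51, 9.18 and 8.75 in CXCR5lo PD-1lo cells.

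Taken as lists, 16 of 17 B cell markers were named on the array, and their summed level (log2 of the sum) ran from 12.0 to 12.9 in YFP-negative cells and from 12.1 to 12.3 in CXCR5lo PD-1lo cells. Cd79a, Ms4a1 and Pax5, which define B cells, were under log2 4 on all 7 arrays, while Cd79b was at 2.21 to 2.81 in YFP-negative cells and 5.26 to 5.36 in CXCR5lo PD-1lo cells. For 10 of 12 germinal centre B and plasma cell markers the sum was 13.1 to 13.9 in YFP-negative cells and 13.9 to 14.2 in CXCR5lo PD-1lo cells. For 18 of 20 myeloid markers it was 15.5 on YFP-negative replicate 1, 14.8 to 14.9 on the other 3 and 14.8 to 15.04 in CXCR5lo PD-1lo cells, with Csf1r and Itgam under log2 4 throughout. Genes that were high on all 7 arrays carried much of these sums, namely Ighm for B cells, Irf4 and Xbp1 for plasma cells and Ctss and Cst3 for myeloid cells. Cd22, called above, added to the B cell sum in YFP-negative cells. Near-equal sums therefore say little about other cells. For 7 of 8 CD8 T and NK cell markers it was 6.74 to 7.64 in YFP-negative cells and 6.94 to 7.38 in CXCR5lo PD-1lo cells, and Cd8a and Ncr1 were under log2 4 on all 7 arrays. The 5 erythroid markers were under log2 4 on all 7 arrays, and of the 10 stromal markers only Pecam1 was not. Sox13, a factor of gamma delta T cells, was at 2.06 to 2.14 on all 7 arrays. What part such cells have in the differences between the sorts was not tested.

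**Figure D5:**
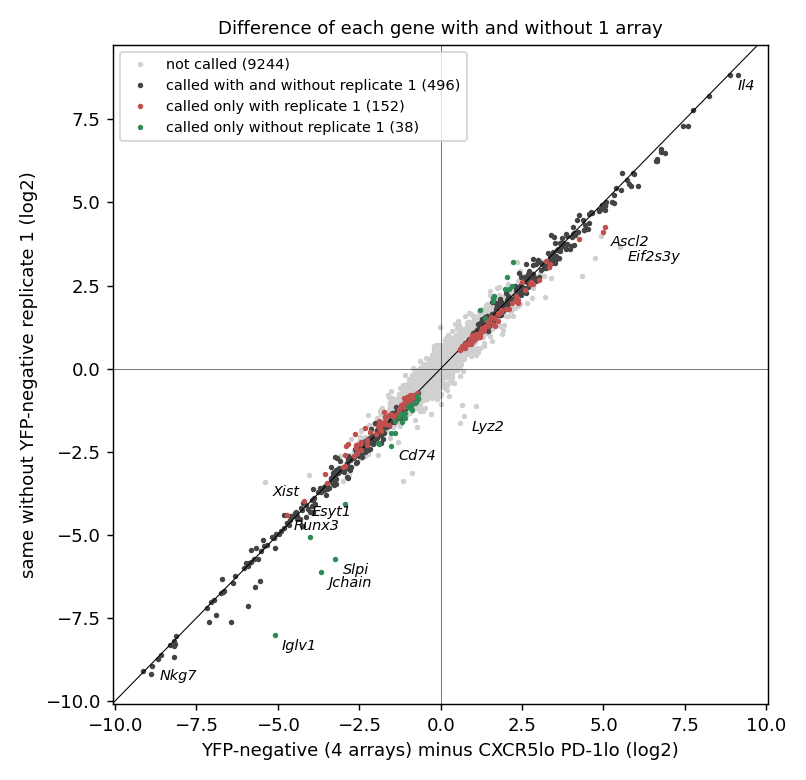
Log2 difference of each of the 9930 genes between YFP-negative and CXCR5lo PD-1lo cells, with all 4 YFP-negative arrays (horizontal axis) and without YFP-negative replicate 1 (vertical axis). Most called genes lie along the diagonal, and Iglv1, Jchain and Slpi lie below it, at -8.02, -6.13 and -5.74 without replicate 1.

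Leaving out that array ended 152 calls and gave 38 others. The 6 largest differences among the lost calls were those of Cxxc5, Ascl2, Runx3, Itgb8, Esyt1 and Dnajb4, and the first 5 of these also had day 10 levels apart from day 7 levels. Esyt1, a lipid transfer protein, was at 7.65, 10.36, 9.40 and 5.73 in YFP-negative cells and 12.09 to 12.71 in CXCR5lo PD-1lo cells (adjusted p = 0.0367, then 0.0929). The 6 largest among the gained calls were Iglv1, Jchain, Slpi, Cd24a, an Igkv9 light chain gene and 4932438H23Rik. Of these, 4932438H23Rik, Cd24a and the light chain gene also passed with all arrays and the replicate block (adjusted p = 0.0011, 0.0116 and 0.0155). Plac8 was called in both fits, at 6.81, 2.06, 2.08 and 2.17 in YFP-negative cells and 10.72, 9.84 and 8.64 in CXCR5lo PD-1lo cells.

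Between YFP-positive and YFP-negative cells 12 genes passed (0.121%), 6 without YFP-negative replicate 1 (0.0604%) and 99 with the replicate block. At an unadjusted p under 0.05 the number was 786. This comparison shares the YFP-negative arrays with the one above. Klf2 averaged 4.89 in YFP-positive cells, 8.56 in YFP-negative cells and 11.5 in CXCR5lo PD-1lo cells. S1pr1 averaged 4.83 in YFP-positive cells, 8.16 in YFP-negative cells and 10.4 in CXCR5lo PD-1lo cells, and Scml4 averaged 3.92, 8.79 and 13.01 in the same order. For these 3 genes YFP-negative cells lay between the other sorts. Scn8a, a sodium channel gene, averaged 3.70 in YFP-positive cells, 7.41 in YFP-negative cells and 2.35 in CXCR5lo PD-1lo cells.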

How the data were processed

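RNA was amplified with Nugen Ovation kits and hybridised to Affymetrix mouse arrays, per the labels' protocols. The authors deposited log2 values that they made with GCRMA, per the submitters' processing notes; its version is not given in the sources used here. Of 45101 probe sets, 34945 had 1 gene symbol, 932 several and 9160 none, and 64 were controls. Probe sets with 1 symbol were kept at log2 4 or more on at least 2 of the 19 arrays (18626), and the one with the highest mean stood for each of 9930 genes. Named genes that were called had 64 other kept probe sets, of which 64 had the same direction and 44 also passed in limma. Among those that did not pass were probe sets of S1pr2 (1.04, adjusted p = 0.639), Scml4 (-1.02, 0.746) and Irf4 (-1.20, 0.307). Others were of Hopx (-1.68, 0.124), Ascl2 (3.99, 0.26) and Cxxc5 (1.33, 0.842). Among named genes not called with all arrays, a further probe set of Id2 did pass (-2.01, 0.0336). So did further probe sets of Maf (1.98, 1.37e-05, and 1.90, 0.00219). Group means over all 19 arrays were fitted in limma 3.58.1 (R 4.3.3, lmFit and eBayes), with Benjamini-Hochberg adjustment over the 9930 genes and a threshold of 0.05. The fit was tested on simulated data. Deviations from group means correlated at 0.3146, 0.3871 and 0.2674 between same-numbered arrays, so by the rule that each same-numbered pair exceed 0.1 the replicate numbers were taken to pair the samples. YFP-negative replicate 4, which has no CXCR5lo PD-1lo array of its number, correlated at 0.3877 with CXCR5lo PD-1lo replicate 3, so the data do not single out the numbers. Same-numbered arrays also share an inferred normalization set, so paired samples and shared processing cannot be told apart. Number 1 joins a YFP-negative array of day 10 with CXCR5lo PD-1lo and YFP-positive arrays of day 7. Its YFP-negative and CXCR5lo PD-1lo arrays also differ in sex-linked transcripts, so fits with the replicate block hold a mismatched pair. Named genes were the markers of the sort, the 25 highest and 25 lowest called differences without overlap (undescribed symbols left out), the first 4 members of each list, the called list members with the 6 largest differences in each direction, the 6 largest calls lost and the 6 gained without YFP-negative replicate 1, and the genes called in both comparisons with the largest YFP-positive minus YFP-negative difference. Other list members named, the gamma chain genes and the sex-linked genes were chosen after their values were seen. The members and lists were chosen with earlier results of these data known. Values near log2 2 reflect the GCRMA floor, and the number of arrays limits the precision. Levels hardly vary at the floor, so the pooled SE of a gene at the floor in some groups can be too small. Alternatives covered normalization, filters, probe sets, groups, day, blocks and left-out arrays.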

Additional observations from a re-analysis of the deposited data

Results flagged for a closer look

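On 1 of the 4 YFP-negative arrays the level of a gene stood far from the other 3, by Dixon's test, in 24 of 189 named genes. Chance gives such a gap in about 1 of 20 groups. Some named genes were chosen because leaving out replicate 1 changed their call. Iglv1, Jchain, Slpi, the Igkv9 light chain gene and 4932438H23Rik are among them. Their flags on replicate 1 largely follow from that choice, so the count cannot be set against chance. On YFP-negative replicate 1 the high levels were Iglv1 13.812, Jchain 12.418, Slpi 12.392, Ifit3 11.568, Lyz1 11.458, Lyz2 10.984 and Cd74 10.32. Plac8 6.81, the Igkv9 light chain gene 6.743, Ccl5 5.407, Anxa1 4.331 and Ccr2 4.27 were high there too, while Aldoc 6.8 and 4932438H23Rik 3.152 were low. On replicate 4 Selplg 11.297, Tnfsf8 10.916, Ahnak 8.986, Ccr7 7.064 and Bcl2l1 5.573 were low and Ctsw 3.553 was high. On replicate 3 Tbx21 3.307 and AA467197 2.307 were high and Trgv4 2.026 was low, all 3 near the floor. On replicate 2 Icos was high at 14.402, with a range over the 4 arrays of 0.228. YFP-positive and YFP-negative cells differed in limma's test in Scml4 by -4.86 (adjusted p = 0.00191), Scn8a by -3.71 (0.0328), Klf2 by -3.67 (0.00191) and S1pr1 by -3.33 (0.0121).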

How the results depend on the processing

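Of 129 named genes that were called, 86 kept their call under every alternative that gave a value, 43 lost it under at least 1, and 0 reversed. The day 7 arrays alone ended 38 of these calls and leaving out CXCR5lo PD-1lo replicate 2 ended 29. Against 648 genes called between YFP-negative and CXCR5lo PD-1lo cells, the count was 3026 with the normalization set as a block, 1779 in pairs 2 and 3 with the replicate block, 1225 after quantile normalization, 1078 with array medians centred and 344 on day 7 arrays. Leaving out 1 array gave 414 to 605, with the lowest count without CXCR5lo PD-1lo replicate 2. With the replicate block it was 748, and the block changed no calls of named genes other than those given beside them. Against 12 genes called between YFP-positive and YFP-negative cells, the count was 1541 with the normalization set as a block, 138 in pairs 2 and 3 with the replicate block, 99 with the replicate block, 58 with that block shared by all 6 groups, 29 with the block and without YFP-negative replicate 1, 66 after quantile normalization, 45 with array medians centred, 7 with no filter and 2 with these 2 groups alone. Leaving out 1 array gave 4 to 307, with 307 without YFP-positive replicate 4. The fits with a block shared by all groups, and with the block and without replicate 1, were chosen after seeing the data. The cause of these shifts was not tested.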

Other observations

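Cd163l1, a scavenger receptor gene of gamma delta T cells, was at 8.81, 9.56, 9.38 and 6.40 on the YFP-negative arrays and at 11.34, 8.95 and 8.44 on the CXCR5lo PD-1lo arrays, so the groups overlapped, unlike those of Trgv4. It was chosen after its values were seen.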
